A study of Mus musculus with 16 samples.

Results

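The protease-activated receptors are encoded in the mouse by F2r (PAR1), F2rl1 (PAR2), F2rl2 (PAR3) and F2rl3 (PAR4). The family was chosen by name, as the 4 rows of the gene table that carry these symbols, out of 46320 genes in all, and all 4 rows were found. Of the 4 receptors, 2 passed the filter on low counts that leaves 15610 genes for testing. F2r passed through all groups, whereas F2rl2 passed through the activated platelet group alone. F2rl1 and F2rl3 did not pass.

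The cells were bone marrow-derived macrophages of C57BL6/J mice, grown from marrow over 7 days with M-CSF supplied by L929-conditioned medium at 15%. After 400000 cells per well had been plated, they were held for 4 h in 0.5% serum and then treated for 4 h. The 4 groups of 4 libraries were vehicle (PBS), thrombin, resting platelets, and thrombin-activated platelets, with platelets purified from blood of C57BL6/J mice. The labels name no altered allele in any group. The treatment protocol gives thrombin at 0.01 U/mL, alone and with platelets, whereas the labels of the thrombin libraries give 0.1 U/mL and those of the activated platelet libraries give none. Comparisons of these groups therefore rest on an uncertain dose.

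These receptors are G protein-coupled receptors with an unusual ligand: a protease cuts the extracellular amino terminus, and the new end folds back as a tethered ligand of the same receptor. Thrombin, the protease that ends the coagulation cascade, cuts PAR1, PAR3 and PAR4, while PAR2 is mainly a receptor for trypsin-like proteases such as trypsin, mast cell tryptase and the tissue factor complex. On mouse platelets PAR3 holds thrombin for PAR4, which signals, and on fibroblasts and endothelial cells PAR1 is the main thrombin receptor. Receptor signalling runs through G proteins of the Gq, G12/13 and Gi classes.

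The coding DNA around the activating cut is shown because it is what makes each gene a receptor of this kind and where the 4 differ in the protease they answer to. Each line gives 5 codons before the cut in lower case and, in capitals, the 6 codons after it, which encode the start of the tethered ligand. The cut was placed in the GENCODE M21 coding sequence from the known first residues of each mouse ligand. In each gene the stretch lies in exon 2 of 2.
F2r: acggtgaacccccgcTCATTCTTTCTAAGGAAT
F2rl1: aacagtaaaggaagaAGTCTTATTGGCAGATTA
F2rl2: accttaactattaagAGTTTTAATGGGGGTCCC
F2rl3: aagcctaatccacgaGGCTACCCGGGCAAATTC
On GRCm38, the build of that annotation, the stretches lie at chr13:95604885-95604917 on the minus strand (F2r), chr13:95514241-95514273 on the minus strand (F2rl1), chr13:95700545-95700577 on the plus strand (F2rl2) and chr8:72762309-72762341 on the plus strand (F2rl3). The codon just before the cut is cgc in F2r, aga in F2rl1, aag in F2rl2 and cga in F2rl3.

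The count table places the genes on another build, GRCm39. There F2r (gene ID 14062) spans chr13:95738288-95754974 on the minus strand, F2rl1 (14063) chr13:95648226-95661748 on the minus strand, F2rl2 (14064) chr13:95833428-95839276 on the plus strand and F2rl3 (14065) chr8:73488287-73490526 on the plus strand. The 3 genes of chromosome 13 are thus neighbours, and F2rl3 stands alone on chromosome 8. Merged exons in the table come to 3338 bases for F2r, 2768 for F2rl1, 2464 for F2rl2 and 1996 for F2rl3.

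Libraries held 22.6 to 30.6 M counts (M stands for mega), and those of the activated platelet group were the deepest at 28.0 to 30.6 M. The cell type named in the labels was checked with 12 macrophage markers, none at 0, which summed to between 17929 and 23146 counts per M counts (CPM) over the 16 libraries. Stromal cell markers were also high, at 3479 to 8251 CPM in sum over 15 genes, and none of them was at 0. Libraries that share a replicate number deviated together. Replicate 1 stood apart: the Y-linked gene Ddx3y lay between 85.1 and 93.2 CPM in its libraries and reached at most 0.270 CPM in replicates 2 to 4. Xist, the transcript of the inactive X, was at most 1.06 CPM in replicate 1 and 1055 to 1292 CPM in the others, so replicate 1 came from another animal than replicates 2 to 4. The labels do not tell whether replicates 2 to 4 were separate cultures or animals, and the p-values cover the spread among these libraries, which may be technical in part.

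F2r was the receptor that the macrophage cultures expressed, taking expressed as at least 1 CPM in every library of a group. It held 1667 counts over the 16 libraries and stood between 2.89 and 6.21 CPM in each of them. F2rl2 was at trace level, above 0 but under 1 CPM, in 3 groups, and reached 1 CPM in 2 of 4 libraries with activated platelets. F2rl1, with 31 counts in all, and F2rl3, with 55, stayed at trace level in every group.

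**Figure D1:**
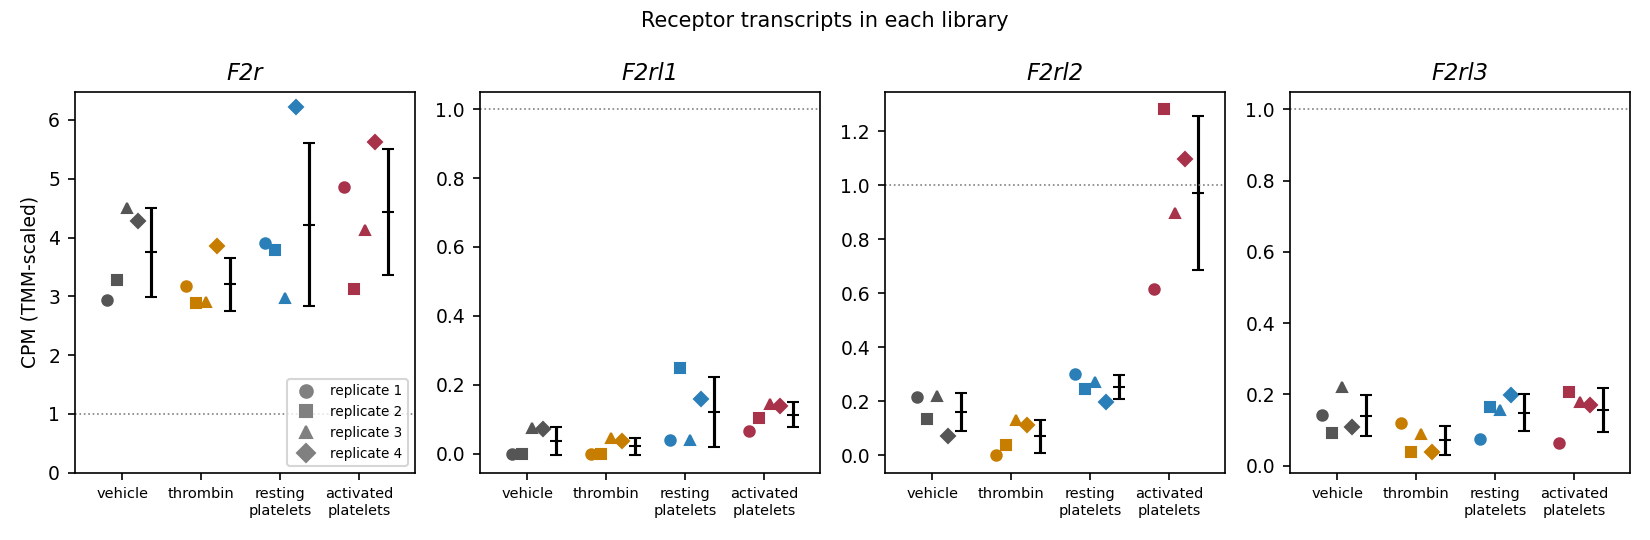
CPM (TMM-scaled library sizes, vertical axis, scale differing between panels) of the 4 receptors in each of 16 libraries, by treatment group. Marker shape gives the replicate number, the bar beside each group is the mean ± SD of 4 libraries, and the dotted line is 1 CPM. F2r lies above the line in all 16 libraries, and F2rl2 is separated upward in the activated platelet group.

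Receptors can be compared with each other only per length of transcript. Averaged over the 16 libraries, F2r stood at 1.17 CPM per kilobase of merged exons, F2rl2 at 0.148, F2rl3 at 0.0646 and F2rl1 at 0.0262. F2r was therefore first and F2rl1 last, and this held in each of the 4 groups. F2r was no abundant transcript, since 11973 genes, 25.8% of the 46320 in the table, had a higher level per kilobase in vehicle. Only 15610 genes of the table passed the filter on low counts, and the rank of F2r among those was not computed.

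The middle of the order depended on the group. In vehicle, F2rl3 at 0.0702 and F2rl2 at 0.0651 CPM per kilobase overlapped in their library ranges, as they did with thrombin at 0.0357 and 0.0288. With resting platelets F2rl2 stood at 0.103 and F2rl3 at 0.0743, and the ranges still overlapped. With activated platelets F2rl2 stood at 0.395 CPM per kilobase (0.250 to 0.520) and F2rl3 at 0.0782 (0.0325 to 0.104), with no overlap. Scaled by coding length instead, F2rl2 ranked above F2rl3 in all 4 groups. The share of F2r in the summed receptor level per kilobase was 88.3% in the vehicle group, 93.0% after thrombin, 85.1% after resting platelets and 72.1% after activated platelets. F2rl2 made up 5.12%, 2.79%, 6.96% and 21.4% in the same order of groups.

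How low a trace level is can be read against transcripts that macrophages should lack. A list of 20 genes restricted to liver, pancreas, muscle, brain and other tissues, such as Alb (albumin) and Ins2 (insulin), gave a median of 2 counts over the 16 libraries, and 5 of the 20 had none. F2r was higher per kilobase than all 20. F2rl2 and F2rl3 were each higher than 19 and lower than 1, Tnnt2, a cardiac troponin at 0.203 CPM per kilobase. F2rl1 was higher than 15 and lower than 5. Averaged over the 16 libraries, the 3 receptors other than F2r thus lay below the highest of these background genes, but F2rl2 in the activated platelet group, at 0.250 to 0.520 CPM per kilobase, lay above it.

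**Figure D2:**
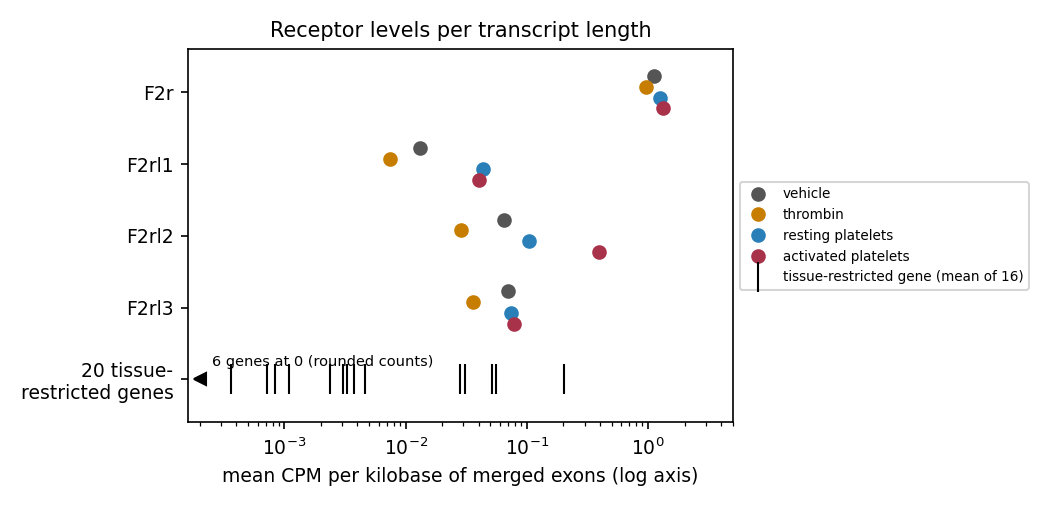
Mean CPM per kilobase of merged exons (log axis) of each receptor in the 4 groups, above the mean over 16 libraries of 20 tissue-restricted genes (vertical ticks; genes at 0 after rounding are drawn as an arrow at the left edge). F2r lies near 1 in every group, whereas F2rl1 and F2rl3 lie among the highest of the tissue-restricted genes.

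PAR1 is the receptor through which thrombin acts on most cells other than mouse platelets. F2r counts in replicates 1 to 4 were 82, 72, 123 and 120 in vehicle. They were 79, 75, 66 and 102 with thrombin. They were 103, 92, 77 and 157 with resting platelets, and 150, 90, 115 and 164 with activated platelets. All 4 groups overlapped, and replicate 4 was the highest library in 3 of them.

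Mean F2r was 3.75 ± 0.762 CPM in the vehicle group, 3.20 ± 0.450 CPM after thrombin, 4.22 ± 1.39 CPM after resting platelets and 4.44 ± 1.07 CPM after activated platelets (mean of 4 libraries ± SD). No comparison passed the threshold in the edgeR quasi-likelihood test across all tested genes with Benjamini-Hochberg adjustment. For thrombin against vehicle the log2 fold change ± SE was -0.23 ± 0.23 (adjusted p = 0.778). Resting platelets against vehicle gave 0.17 ± 0.22 (adjusted p = 0.754), and activated platelets against vehicle 0.24 ± 0.22 (adjusted p = 0.468). Each of these differences was within about its own standard error.

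The largest of the F2r differences was that between activated platelets and thrombin alone, at a log2 fold change of 0.47 ± 0.22 (edgeR, adjusted p = 0.142). F2r was higher with activated platelets in 4 of 4 replicate numbers, by 0.230 to 1.78 CPM. With the replicate number as a block the same difference was 0.47 ± 0.15 (edgeR, adjusted p = 0.0125), which passed. With the block 41.6% of all tested genes passed in that comparison, and without it 25.4% did. The blocked call was lost without replicate 1 (adjusted p = 0.0591) or replicate 4 (adjusted p = 0.0576). Activated against resting platelets gave 0.07 ± 0.22 (adjusted p = 0.868), and the interaction (activated minus resting platelets, less thrombin minus vehicle) gave 0.30 ± 0.31 (adjusted p = 0.611).

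PAR1 is abundant on stromal cells, so the stromal markers of each library are given beside F2r. Their sum followed the replicate number rather than the treatment: replicates 1 and 4 held 6470 to 8251 CPM, and replicates 2 and 3 held 3479 to 4831 CPM, in all 4 groups. F2r averaged 4.99 CPM over the replicate 4 libraries and 3.27 CPM over those of replicate 2. Replicate 1, with stromal sums as high as replicate 4, averaged 3.72 CPM of F2r, close to replicate 3 at 3.63 CPM. In each group replicate 4 had the lowest macrophage marker sum, at 17929 to 18270 CPM. Over the 16 libraries the Pearson correlation of F2r was 0.41 with the stromal sum and -0.55 with the macrophage sum. With the endothelial sum it was -0.39. Libraries share replicate numbers, so these values are a description. The part of stromal cells or of macrophages in the F2r level was not tested. In such bulk samples fewer cells of a type and less RNA per cell cannot be told apart. Endothelial cells also carry PAR1, and their 10 markers, none at 0, summed to 124 to 125 CPM in the replicate 2 libraries, where F2r was lowest on average, and to 69.3 to 94.0 CPM in the others. Most of the endothelial sum was Vwf, at 74.9 CPM in vehicle, where the 10 markers averaged 86.9 CPM in sum.

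PAR3 lacks strong signalling of its own and serves on mouse platelets as a thrombin-binding partner of PAR4. F2rl2 counts in replicates 1 to 4 were 6, 3, 6 and 2 in vehicle. With thrombin they were 0, 1, 3 and 3. They were 8, 6, 7 and 5 with resting platelets, and 19, 37, 25 and 32 with activated platelets. Every activated platelet library was above every library of the other groups, while the other groups overlapped one another in part. How many other genes were separated in this way was not counted, so whether the separation is unusual cannot be told. A different measure, edgeR calls for activated platelets against vehicle, covered 25.8% of all tested genes.

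F2rl2 rose with activated platelets, the one receptor called of the 2 tested in that comparison, in which 25.8% of all tested genes were called and 12.2% were called higher. Mean F2rl2 was 0.161 ± 0.0706 CPM in the vehicle group, 0.0709 ± 0.0622 CPM after thrombin, 0.255 ± 0.0442 CPM after resting platelets and 0.974 ± 0.285 CPM after activated platelets (mean of 4 libraries ± SD). For activated platelets against vehicle the log2 fold change ± SE was 2.56 ± 0.37 (edgeR, adjusted p = 9.95e-05), a 5.88-fold difference. The ratio of summed counts scaled by library size was 6.00, with an exact binomial 95% interval of 3.58 to 10.7 that covers counting error only. F2rl2 entered the test through the activated platelet group alone, where it is high, so its calls against vehicle, thrombin and resting platelets and in the interaction are in part built into the filter. With no filter beyond 1 count in all libraries together, which leaves 28111 genes, the log2 fold change against vehicle was 2.56 (edgeR, adjusted p = 4.32e-05), and 12.4% of those genes were called.

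The other groups were compared under the same limit of the filter. Against thrombin alone the log2 fold change was 3.71 ± 0.44 (edgeR, adjusted p = 1.40e-05), where 25.4% of tested genes were called, and 11.9% called higher. Against resting platelets it was 1.91 ± 0.35 (edgeR, adjusted p = 0.00137), where 15.8% were called, and 7.34% called higher. Without the filter the values were 3.71 (adjusted p = 3.13e-06) and 1.91 (adjusted p = 0.00105), with 12.2% and 7.12% of genes called. These comparisons share the activated platelet libraries and so are not independent. An exact permutation test of CPM, added after the data were seen, gave p = 0.0286 for each of the 3 comparisons (two-sided, n = 4 against 4), the smallest this design allows. Adjusted over 10 such permutation tests the value was p = 0.0952, which does not pass. None could pass unless most of the 10 tests reached that smallest p, so this outcome does not decide whether F2rl2 differed.

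Neither thrombin nor resting platelets alone gave a called difference in F2rl2. Thrombin against vehicle gave -1.15 ± 0.61 on the log2 scale (edgeR, adjusted p = 0.511), from 7 counts in all against 17, and 0.288% of tested genes were called there. Resting platelets against vehicle gave 0.65 ± 0.47 (edgeR, adjusted p = 0.503), from 26 counts against 17, with 3.39% of tested genes called. F2rl2 was higher with resting platelets than with vehicle in 4 of 4 replicate numbers, by 0.0512 to 0.127 CPM. At this depth the count ratio of resting platelets to vehicle lay between 0.827 and 3.11 (95%, counting error only), an interval that holds equal levels.

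The interaction for F2rl2 was 3.06 ± 0.71 on the log2 scale (edgeR, adjusted p = 0.0126), where 9.93% of tested genes were called, and 4.56% called higher. That F2rl2 was tested only because it is high with activated platelets bears on this value too, and without the filter it was 3.07 (edgeR, adjusted p = 0.0139), where 4.15% of genes were called. Without the block, the call was lost when all libraries of replicate 1 (2.77, adjusted p = 0.0636), replicate 2 (2.75, adjusted p = 0.0714) or replicate 3 (3.34, adjusted p = 0.0684) were left out. With the replicate block it passed in all 4 such fits (2.75 to 3.51, adjusted p = 0.00568 to 0.0193).

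**Figure D3:**
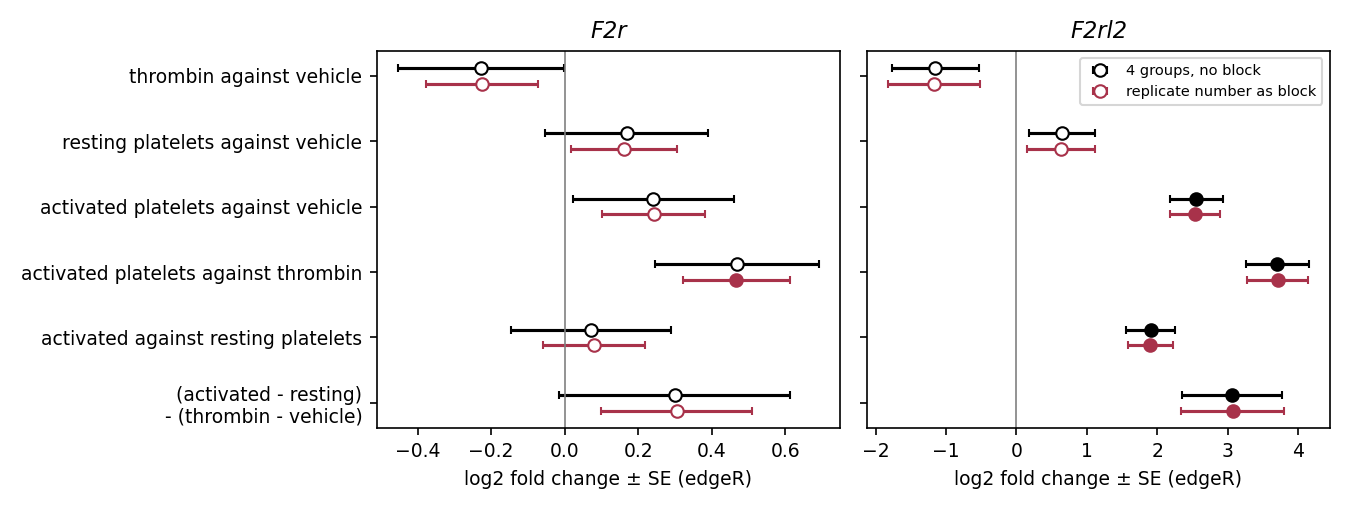
Log2 fold changes ± SE of F2r and F2rl2 in the 6 comparisons (horizontal axes of different range), from the edgeR fit with 4 groups and no block (black) and with the replicate number as a block (red). Filled points have an adjusted p under 0.05: F2rl2 has 4 in both fits, and F2r has 1, with the block only.

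Platelets bring RNA of their own, and F2rl2 is a platelet gene in the mouse. Of the 19 platelet and megakaryocyte markers tested, 0 were called with thrombin against vehicle by edgeR (0 at an unadjusted p under 0.05, and 0 by DESeq2), 10 rose with resting platelets (2.07% of all tested genes did) and 16 rose with activated platelets (12.2% of all tested genes did), while 1 fell (Rgs18, at 19.2 CPM in vehicle and 13.8 CPM with activated platelets). All 21 markers of the list had counts. Without Pf4, a platelet chemokine that is also abundant in vehicle libraries, the other 20 summed to 94.8 to 161 CPM in vehicle, 115 to 161 with thrombin, 119 to 170 with resting platelets and 257 to 370 with activated platelets. In vehicle most of this sum, 123 CPM on average, was Vwf, at 74.9 CPM. Vwf stood at 75.3 CPM with activated platelets. Gp9, a subunit of the von Willebrand factor receptor of platelets, had no count in vehicle or thrombin libraries and stood at 1.07 CPM with resting and 7.94 CPM with activated platelets.

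The rise in F2rl2 can be set beside those of the markers. Of the 21 markers, 12 were under 1 CPM in vehicle, as F2rl2 was. Between vehicle and activated platelets these 12 gained 0.0632 to 46.3 CPM, with a median of 2.07 CPM, and F2rl2 gained 0.813 CPM. Gp1ba, the thrombin-binding subunit of that receptor, gained 0.853 CPM. For F2rl2 the gain with activated platelets was 8.63 times the gain with resting platelets, while for Gp9 it was 7.44, for Gp5 6.23 and for Gp1ba 6.77. Among the 12 low markers this ratio ran from 2.498 (Gfi1b) to 15.7 (Tubb1), with a median of 7.44. Selp, which was lower with resting platelets than in vehicle, had no ratio. The F2rl2 ratio rests on a resting platelet gain of only 0.0943 CPM. The highest F2rl2 level of the activated platelet group was in replicate 2, at 1.28 CPM, which also had the highest platelet marker sum, at 370 CPM. The lowest, replicate 1 at 0.616 CPM, had a sum of 264 CPM, and replicate 4 at 1.10 CPM had the lowest sum, 257 CPM. Markers of other cells moved as well. The 8 erythroid markers, 1 of them at 0 in all libraries, summed to 0.127 CPM in vehicle, 2.15 with resting and 10.7 with activated platelets. The 10 neutrophil markers went from 38.0 to 72.6 CPM and the 10 lymphocyte markers from 35.5 to 17.0 CPM between vehicle and activated platelets. The part of RNA from platelets or these other cells in the F2rl2 difference was not tested.

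**Figure D4:**
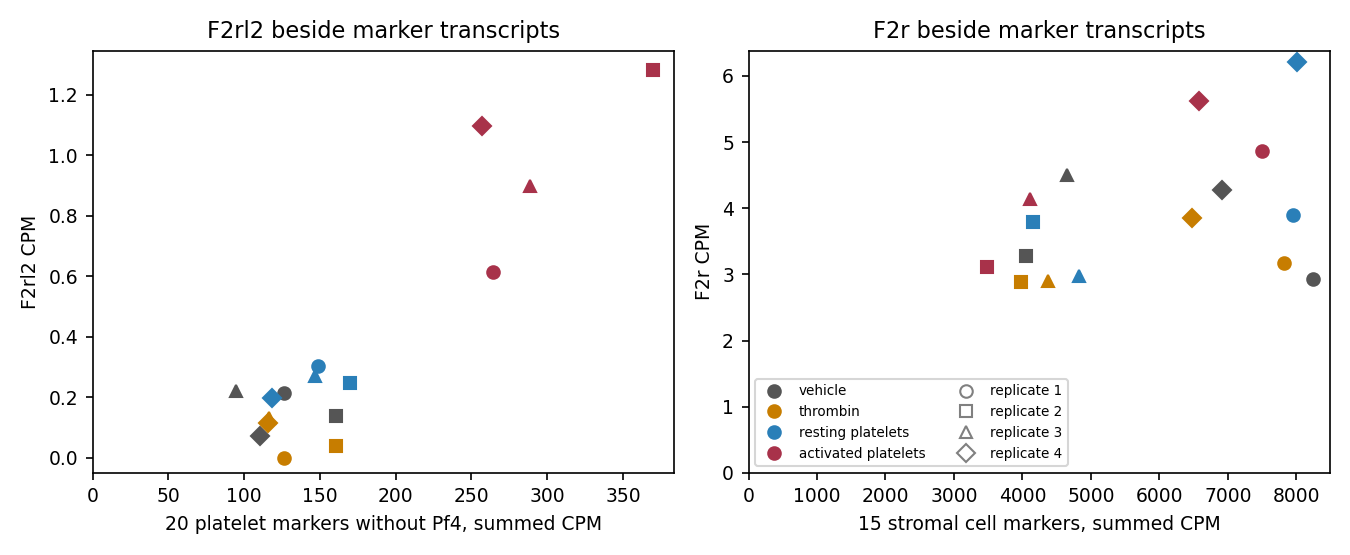
Left, F2rl2 CPM in each of 16 libraries against the summed CPM of 20 platelet markers (Pf4 left out). Right, F2r CPM against the summed CPM of 15 stromal cell markers; color gives the group and shape the replicate number. The 4 activated platelet libraries are highest on both axes at left, and at right the libraries divide by replicate number along the horizontal axis.

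F2rl2 lies wholly inside the span of Iqgap2, a scaffold protein gene on the opposite strand, and 5849 bases of the 2 spans overlap in the table. Iqgap2 had 100939 counts over the 16 libraries, so reads from it could be counted in F2rl2 if strand was not used, and the setting for strand is not given in the sources used here. The libraries were made with a stranded kit, per the labels' protocols. In the GENCODE M21 annotation, on GRCm38 rather than the build of the counts, 0 bases of Iqgap2 exons overlapped exons of F2rl2. Iqgap2 stood at 260 ± 22.4 CPM in vehicle and at 184 ± 17.5 CPM with activated platelets (SD, n = 4). The part of Iqgap2 reads in the F2rl2 counts was not tested. The other genes within 50 kb of F2rl2, all predicted models, held at most 4.25 counts in all.

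PAR4 is the receptor that carries the thrombin signal in mouse platelets. F2rl3 counts in replicates 1 to 4 were 4, 2, 6 and 3 in vehicle. They were 3, 1, 2.5 and 1 with thrombin, 2, 4, 4 and 5 with resting platelets, and 2, 5.5, 5 and 5 with activated platelets, where fractions are as deposited. The 4 groups overlapped.

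Mean F2rl3 was 0.140 CPM in the vehicle group, 0.0712 CPM after thrombin, 0.148 CPM after resting platelets and 0.156 CPM after activated platelets. The count ratio of activated platelets to vehicle was 1.08, with a 95% interval of 0.515 to 2.31 for counting error. F2rl3 gained 0.0158 CPM there, where F2rl2 gained 0.813 CPM. Whether the 2 receptors differ in that change was not tested. Thrombin libraries were lower than vehicle in 4 of 4 replicate numbers, by 0.0228 to 0.132 CPM, but the exact two-sided permutation test gave p = 0.114 (n = 4 against 4, adjusted p = 0.286 over 10 tests). Sin3b, a corepressor gene 3.455 kb away, stood at 105 CPM in vehicle and 108 CPM with activated platelets.

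PAR2 is not cut by thrombin to any usual extent and belongs here by family. F2rl1 counts in replicates 1 to 4 were 0, 0, 2 and 2 in vehicle. They were 0, 0, 1 and 1 with thrombin, 1, 6, 1 and 4 with resting platelets, and 2, 3, 4 and 4 with activated platelets. Libraries at 0 were all of replicates 1 and 2 in the groups without platelets, and a count of 0 allows up to 3 counts, or 0.107 to 0.136 CPM in those 4 libraries.

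Mean F2rl1 was 0.112 CPM with activated platelets and 0.0204 CPM with thrombin, from 13 counts in all against 2. In that comparison 25.4% of all genes tested with edgeR were called. The exact permutation test gave p = 0.0286 (two-sided, n = 4 against 4), the smallest possible, and adjusted over 10 tests p = 0.286, which does not pass. After this adjustment no test could pass unless most of the 10 reached that smallest p. The count ratio was 5.58, with a 95% interval of 1.26 to 50.9 for counting error. Against vehicle the ratio was 2.93 (0.906 to 12.3) for activated and 3.10 (0.941 to 13.2) for resting platelets. Activated platelet libraries were higher in F2rl1 than vehicle and than thrombin in 4 of 4 replicate numbers each, by 0.0648 to 0.104 CPM. No F2rl1 comparison passed after adjustment in the permutation test. That test leaves out the pairing, and no receptor could have passed it alone.

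Signalling genes of the receptors were followed through lists, which were chosen with earlier results of these data known. Their counts of calls, beside the shares over all tested genes, are therefore a description. The part of the receptors in the changes of list members was not tested. The G protein alpha subunits held 9 tested members of 11, and with activated platelets against vehicle, where 12.2% of all tested genes were higher and 13.6% lower, 2 rose and 0 fell, at a median log2 fold change of -0.06 against 0.00 over all tested genes. Those were Gna15, a Gq-class subunit of blood cells, at 15.8 ± 1.76 and 23.9 ± 1.85 CPM (log2 fold change 0.60, edgeR adjusted p = 0.000116), and Gnaq, at 181 ± 8.61 and 200 ± 5.56 CPM (0.14, adjusted p = 0.0228). Gna13, a G12/13-class subunit, stood at 296 and 301 CPM (adjusted p = 0.854), and Gnai2 at 847 and 799 CPM (adjusted p = 0.169).

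Of 20 effectors, 1 rose and 4 fell with activated platelets, at a median of -0.02. Over all tested genes 12.2% rose and 13.6% fell in that comparison with vehicle. Pik3cg, a lipid kinase driven by G protein beta-gamma subunits, rose from 84.2 to 103 CPM (edgeR, adjusted p = 0.00352). Prkcb, a protein kinase C, fell from 197 to 148 CPM (adjusted p = 0.000592), and the guanine nucleotide exchange factors Arhgef11 (99.4 to 85.1 CPM, adjusted p = 0.00294) and Arhgef1 (269 to 235 CPM, adjusted p = 0.0256) fell too. Itpr1 also fell, from 26.2 to 21.0 CPM.

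Desensitisation and trafficking genes moved in both directions with activated platelets, with 4 of 16 higher and 4 lower. The shares over all tested genes were 12.2% higher and 13.6% lower. Rgs1, which speeds the shut-off of Gi and Gq signalling, rose from 44.3 to 94.1 CPM (log2 fold change 1.09, edgeR adjusted p = 1.08e-07), and Rgs2 and Rgs16 rose as well. The arrestins, which bind activated receptors, went apart: Arrb2 rose from 282 to 364 CPM (0.37, adjusted p = 0.000247), while Arrb1 fell from 268 to 179 CPM (-0.59, adjusted p = 4.43e-07). Grk3, Rgs14 and Rgs18 fell with Arrb1.

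Of 9 thrombin cofactors and partner receptors, 6 rose with activated platelets and 0 fell, where 12.2% of all tested genes rose. The subunits Gp1ba, Gp1bb, Gp5 and Gp9, which are platelet markers, made up 4 of the 6, and P2ry12, an ADP receptor of platelets, was the fifth. F3, tissue factor, which starts coagulation, rose from 0.584 to 1.61 CPM (log2 fold change 1.45, edgeR adjusted p = 0.00110). Thbd (thrombomodulin), which turns thrombin toward protein C, stood at 23.8 and 23.7 CPM (adjusted p = 0.989), and Procr, the protein C receptor, at 13.3 and 20.5 CPM (adjusted p = 0.115).

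Among proteases that cut these receptors, 8 of 20 were tested, 1 rose and 1 fell with activated platelets. By comparison 12.2% of all tested genes rose and 13.6% fell. Mmp13, a collagenase reported to cut PAR1, went from 32.5 to 46.2 CPM (edgeR, adjusted p = 0.00931), and St14, matriptase, which cuts PAR2, from 2.45 to 1.55 CPM (adjusted p = 0.00632). F2, which encodes thrombin itself, had 0 counts in vehicle and 1 with activated platelets.

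Immediate early genes and targets of the transcription factor SRF, which PAR signalling is known to induce, rose in 10 of 20 cases with activated platelets and fell in 1, at a median of 0.56. Among all tested genes 12.2% rose and 13.6% fell there. This list too was chosen with earlier results known, and the part of PAR signalling in its changes was not tested. Fos, with the smallest p of the list, rose from 54.5 ± 3.13 to 228 ± 18.4 CPM (log2 fold change 2.07, edgeR adjusted p = 2.04e-09). Ier3 went from 13.6 to 30.2 CPM, Ier2 from 18.2 to 29.8 CPM and Thbs1, thrombospondin 1, from 2353 to 4835 CPM (adjusted p = 0.0106). Atf3, a stress factor, fell from 299 to 103 CPM (adjusted p = 0.000342).

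Thrombin alone gave 0 calls among the 82 tested members of the 6 lists in edgeR, where 0.288% of tested genes were called. At an unadjusted p under 0.05 there were 10, and DESeq2 called 3 and limma-voom 0. With resting platelets, at a background of 3.39%, calls in the lists were Rap1b among effectors, Rgs1 and Rgs16 (higher) and Arrb1 and Rgs14 (lower) among desensitisation genes, Gp1ba, Gp5 and Gp9 among cofactors, and Fos. Fos reached 92.7 CPM there against 56.3 CPM with thrombin alone. With the replicate block, where 8.23% of tested genes were called with thrombin, the same lists gave 2 subunits, 3 effectors, 4 desensitisation genes and 2 immediate early or SRF targets. With resting platelets and the block, 21.5% of all tested genes were called, and so were 16 of the 20 immediate early and SRF targets, 15 of them higher. There the block also gave 3 subunits, 10 effectors, 9 desensitisation genes, 4 cofactors and 2 proteases. With activated platelets and the block, 42.5% of all tested genes were called, and in the lists 5 subunits, 10 effectors, 6 proteases and 17 immediate early or SRF targets were. Of the other 2 lists, desensitisation genes gave 5 higher and 6 lower, and cofactors gave 7 higher.

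Counts in the lists also moved when all libraries of 1 replicate number were left out. So did those over all tested genes: without replicates 1 to 4 in turn, 16.2%, 21.2%, 19.1% and 18.3% were called with activated platelets, and 0.372%, 0.919%, 2.52% and 0.745% with resting platelets. With activated platelets, calls of G protein subunits went from 2 to 1 without replicate 1, 2 or 4, those of effectors from 5 to 3 without replicate 1 or 4, those of proteases from 2 to 1 without replicate 1, and those of immediate early and SRF targets from 11 to 6 without replicate 3. With resting platelets, cofactor calls went from 3 to 0 without replicate 1 and to 1 without any other number, and desensitisation calls from 4 to 1 without replicate 1 or 2 and to 2 without replicate 4. Rap1b was lost as the 1 effector without replicate 1, 2 or 4.

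**Figure D5:**
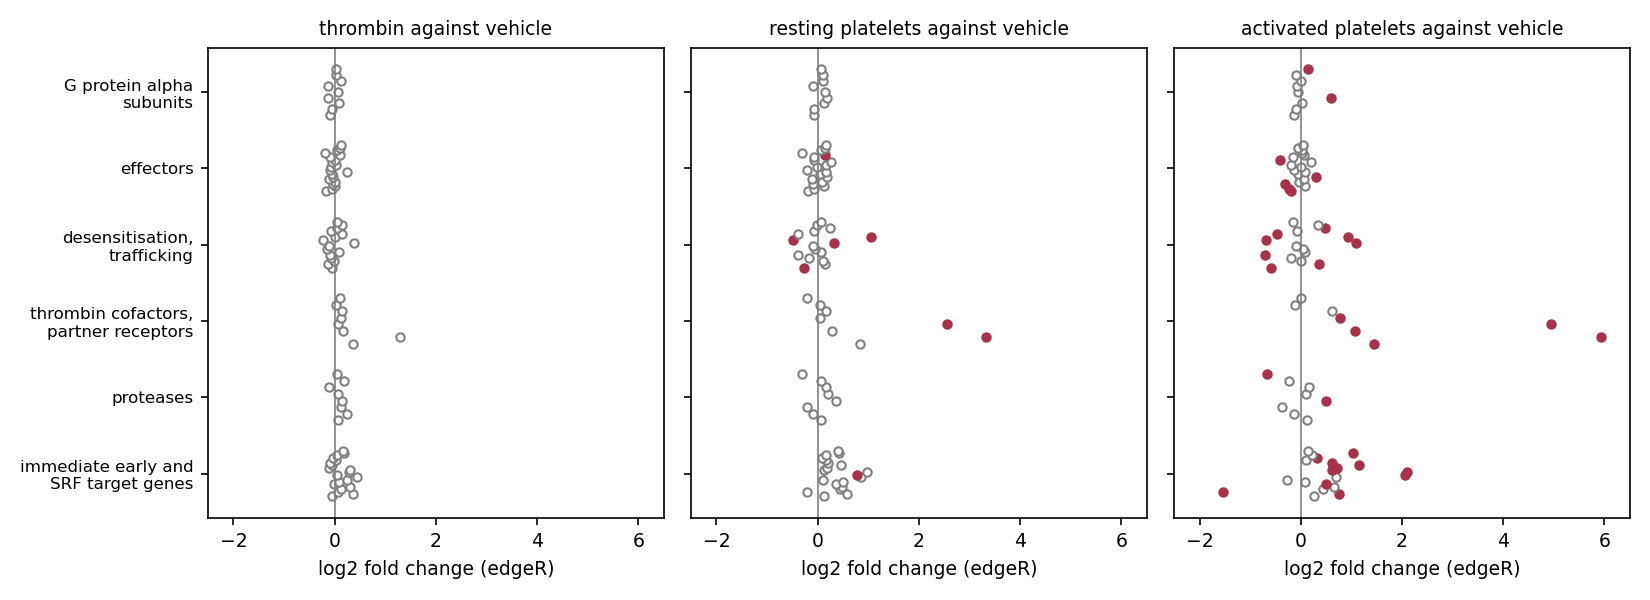
Log2 fold changes (edgeR, no block) of the tested members of 6 lists of genes around the receptors, for thrombin, resting platelets and activated platelets against vehicle. Red points have an adjusted p under 0.05, and Gp9 is left out because it had no counts in vehicle. The thrombin panel holds no red point.

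Genes with a pattern like that of each tested receptor were ranked by Pearson r of log2 CPM over the 16 libraries, among genes of at least 1 CPM. For F2r the first 5 were Foxp1 (0.87), Dkc1 (0.87), Slc13a3 (0.86), Foxc2 (0.85) and Mcm4 (0.83). For F2rl2 they were Arrb2 (0.93), Cxcl16 (0.93), Pfkfb3 (0.93), Vasp (0.92) and L3mbtl2 (0.92). The libraries share replicate numbers and groups, so these values are a description. With replicate means removed, 1 of the 5 was shared for each receptor, Dkc1 for F2r and Arrb2 for F2rl2.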

How the data were processed

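Poly(A) RNA was sequenced from libraries made with a stranded kit, per the labels' protocols. The authors deposited estimated counts per gene with no normalization. The tools named in the submitters' processing notes are featureCounts 1.6.4, STAR 2.7.2b and cutadapt 2.5, with builds GRCm39 and mm10. How strand and multiple matches were handled is not given in the sources used here. Of values above 0, 25.5% were not whole, although the design had assumed whole counts, so they were rounded. Groups came from titles. Genes were filtered with filterByExpr, scaled by TMM and tested with edgeR 4.0.16 (robust quasi-likelihood, R 4.3.3) on 16 libraries as 4 groups, two-sided, with Benjamini-Hochberg adjustment at 0.05. The procedure was tested on simulated data. Receptors under the filter had an exact permutation test of CPM.

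After removal of group means, the 24 same-number correlations lay between 0.290 and 0.617, other pairs between -0.436 and 0.253. The numbers were therefore taken to pair libraries, which comes from the data, as labels do not say what they mark. The members, lists and naming rule (5 most similar genes per receptor, neighbours within 50 kb, up to 3 list members per direction, and fixed names) were chosen with earlier results of these data known. Alternatives covered scaling, filter, tool, block and left-out libraries. Results for some named genes and for 1 list are not reported here.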

Additional observations from a re-analysis of the deposited data

Results flagged for a closer look

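The difference between the thrombin effect with platelets and without them was flagged for F2rl2. Its interaction was 3.06 ± 0.71 on the log2 scale (edgeR, adjusted p = 0.0126). F2rl2 was tested only through the activated platelet group, where it is high, so this value is in part built into the filter; without the filter it was 3.07 (adjusted p = 0.0139). It rests on 113 counts with activated platelets, 26 with resting platelets, 7 with thrombin and 17 with vehicle. No library of any receptor stood far enough from its group to be flagged, in 16 groups of 4 libraries.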

How the results depend on the processing

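F2rl2 rose with activated platelets against vehicle, thrombin and resting platelets in 32 of 33 alternatives each. Fits that used the filter tested F2rl2 only through the activated platelet group, where it is high. This count of alternatives is therefore in part built into the filter. With a filter of 1 CPM in 4 libraries F2rl2 was not tested, since only 2 libraries reached 1 CPM. The exact permutation test, with differences of 0.813, 0.903 and 0.719 CPM, gave an adjusted p of 0.0952 in all 3 comparisons. It could pass only if most of its 10 tests reached the smallest p that the design allows. The F2rl2 interaction lay between 2.67 and 3.51 in the 30 alternatives and was lost without replicate 1, 2 or 3. Over the left-out numbers it was 2.75 to 3.49, the highest being without replicate 4, which kept the call. DESeq2 gave no adjusted p for F2rl2 in some comparisons, and these were left out.

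F2r passed only with the replicate block: activated platelets against thrombin at 0.47 (0.57 without replicate 2 and 0.45 without replicate 3), and, without replicate 3, activated platelets (0.38, adjusted p = 0.0309) and resting platelets (0.41, adjusted p = 0.0414) against vehicle. Its uncalled differences changed sign for activated against resting platelets (-0.063 to 0.324 overall; -0.025 with the block and without replicate 3) and for resting platelets against vehicle (-0.083 to 0.409; 0.40 without replicate 3, and -0.0079 with the block and without replicate 4). Left-out libraries also turned the sign of F2rl1 for activated against resting platelets (-0.036 to 0.034 CPM), and of F2rl3 for resting platelets (-0.0084 to 0.035 CPM) and activated platelets (-0.0015 to 0.046 CPM) against vehicle and for activated against resting platelets (-0.017 to 0.038 CPM). The causes were not tested. On all 16 libraries the replicate block changed no other call of F2r or F2rl2, and it kept the F2rl2 interaction where leaving out replicate 1, 2 or 3 without the block lost it. F2rl1 and F2rl3 had no blocked fit.

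The replicate block raised calls over all genes from 45 to 1285 with thrombin, 529 to 3360 with resting and 4031 to 6635 with activated platelets against vehicle, from 3960 to 6499 for activated platelets against thrombin, 2472 to 5391 for activated against resting platelets and 1550 to 4535 for the interaction. DESeq2 called 160 with thrombin and 953 with resting platelets. Without replicate 1, calls fell to 4, 58, 2522, 2422, 972 and 264 in the same order. Counts of 31 to 163 over 16 libraries limit F2rl1, F2rl2 and F2rl3.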
